A study of Mus musculus with 22 samples.

Results

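The Hox genes encode homeodomain transcription factors that give cells their position along the body axis. The genes analysed here are the 36 names of the form Hoxa, Hoxb, Hoxc or Hoxd plus a number among the 34378 gene names of the deposited expression table, chosen by name and without use of any measured value. They comprise 11 genes of cluster A, 10 of cluster B, 7 of cluster C and 8 of cluster D. All groups were cardiac fibroblasts from CD1 mice, and all carried aMHC-GFP, in which a cardiac myosin promoter drives a fluorescent reporter. One set of cultures was infected with a retrovirus for a polycistronic transgene of Mef2c, Gata4 and Tbx5 (MGT), the factors that turn fibroblasts into induced cardiomyocytes, and another with a lacZ retrovirus, each sampled at days 3, 5, 7, 10 and 14. Untransduced fibroblasts served as day 0. Each of the 11 groups had 2 Agilent 1-colour arrays, 22 in all, and the labels do not say that these came from separate cultures or animals, so that a p-value here measures only the spread between arrays, which may be technical. The promoter that drives the transgene and the share of infected cells are not given in the sources used here.

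Hox genes lie in clusters on separate chromosomes, and their order along a cluster follows their order along the body axis: genes of low paralogue number act anteriorly and those of high number posteriorly. Retinoic acid induces genes at the anterior end of the clusters, and Hox proteins bind DNA together with TALE cofactors such as Meis and Pbx proteins. Adult fibroblasts keep a Hox pattern that reflects the region they came from, and in the embryo some anterior members are active in progenitors of the outflow tract.

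The probes of cluster A covered mouse chromosome 6 from 52105392 to 52209039, those of cluster B chromosome 11 from 96057854 to 96228510, those of cluster C chromosome 15 from 102759058 to 102867272 and those of cluster D chromosome 2 from 74509248 to 74585846, in the mm9 coordinates of the array files. Promoter windows of 300 bases around the transcription start were matched to 21 of the 36 members, 23 windows in all, in RefSeq on the GRCm38.p6 build. One window per cluster is shown, from members that passed as lower with MGT and whose window holds the letters AGGTCA, a half-site bound by retinoic acid receptors. Capitals mark AGGTCA or AGGTGT, the core of the T-box motif to which Tbx5 binds, on either strand. The search on both strands also covered AGATAA for GATA factors and TAATTA for homeodomains.
Hoxa5 (chr6:52204538-52204837, minus strand): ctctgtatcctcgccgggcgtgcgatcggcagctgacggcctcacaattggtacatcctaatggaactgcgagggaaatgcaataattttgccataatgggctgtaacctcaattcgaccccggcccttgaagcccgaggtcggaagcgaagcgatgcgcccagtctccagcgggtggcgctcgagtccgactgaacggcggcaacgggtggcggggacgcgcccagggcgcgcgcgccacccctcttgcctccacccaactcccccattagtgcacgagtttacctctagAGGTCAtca
Hoxb4 (chr11:96318017-96318316, plus strand): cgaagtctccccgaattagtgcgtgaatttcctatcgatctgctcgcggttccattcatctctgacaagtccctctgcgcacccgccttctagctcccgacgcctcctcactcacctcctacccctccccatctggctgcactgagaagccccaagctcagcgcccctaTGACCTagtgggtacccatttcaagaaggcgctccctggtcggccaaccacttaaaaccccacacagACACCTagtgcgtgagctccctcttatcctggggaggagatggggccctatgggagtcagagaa
Hoxc4 (chr15:103034145-103034444, plus strand): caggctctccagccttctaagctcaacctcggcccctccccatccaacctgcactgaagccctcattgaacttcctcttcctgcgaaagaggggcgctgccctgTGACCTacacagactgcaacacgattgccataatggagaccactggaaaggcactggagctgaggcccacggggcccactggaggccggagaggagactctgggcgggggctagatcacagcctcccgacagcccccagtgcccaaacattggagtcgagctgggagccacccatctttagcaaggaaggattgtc
Hoxd8 (chr2:74704365-74704664, plus strand): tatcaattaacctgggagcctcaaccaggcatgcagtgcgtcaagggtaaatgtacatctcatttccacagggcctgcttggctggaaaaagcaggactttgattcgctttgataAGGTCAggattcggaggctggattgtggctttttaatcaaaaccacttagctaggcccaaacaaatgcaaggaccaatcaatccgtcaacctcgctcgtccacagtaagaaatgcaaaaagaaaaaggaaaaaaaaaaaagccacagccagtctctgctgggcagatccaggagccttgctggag
AGGTCA was found in 7 of the 23 Hox windows (30.4%) and in 16.3% of all 32851 windows. AGGTGT was found in 3 Hox windows (13.04%) and in 13.7% of all windows, AGATAA in 0 Hox windows and in 11.2% of all, and TAATTA in 2 Hox windows (8.70%) and in 5.29% of all. A match describes the letters of the window only.

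Levels are given as log2 of the processed signal relative to the 75th percentile of the array, and a gene counts as detected where the scanner software marked its spot as well above background. At background means not so marked. Such a spot can still pass the laxer flag of the scanner software, positive and significant against background. Between 48.4% and 71.0% of the spots of an array were well above background, with the lowest share on the second day 14 lacZ array, whose 75th percentile signal (729) lay below the 1285 to 2124 of the other 21. The 2 arrays of day 14 lacZ were also the farthest apart, with a median absolute log2 difference of 0.26 over all genes and of 0.90 over the tested Hox genes, against 0.06 to 0.19 and 0.13 to 0.41 in the other groups. MGT and lacZ arrays of days 3 and 5 shared a slide, as did those of days 7 and 10 another. Day 0 shared a slide with day 14 lacZ, whereas day 14 MGT had a slide of its own, so slide and vector cannot be told apart at day 14. All 10 fibroblast markers were above background on both arrays of every group. Their summed level was 514 to 933 times the 75th percentile signal with MGT, against 953 to 1703 with lacZ, and 9 of the 10 were lower and 1 (Thy1) higher with MGT on average. All 9 cardiomyocyte markers were higher with MGT. Of 6 endothelial markers 5 were lower and 0 higher, with a median averaged difference of -1.62, against -0.49 for the fibroblast markers. Their summed level was 5.75 to 9.76 times the 75th percentile signal with MGT and 7.85 to 14.2 with lacZ, and 11.3 to 11.6 at day 0. Of 5 epicardial markers 3 were higher and 2 lower, of 5 smooth muscle markers 1 and 2, and of 4 Schwann cell markers 2 and 1. Of 6 macrophage markers 0 were called in this averaged comparison. Of all 18055 genes 40.7% were called lower and 23.3% higher in it. The part of these markers in the Hox results was not tested, and in such bulk samples fewer cells of a type and less RNA per cell cannot be told apart.

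Signals at background were not equal between the groups. Over the 10209 probes that were well above background on no array, the median log2 difference of MGT minus lacZ was -0.68 on average over the 5 days and -2.01 at day 14. The 6 Hox genes detected on no array followed, with averaged differences from -1.08 to -0.18. Differences of members with arrays at background are to be read beside that shift, whose part in them was not tested. In the comparisons of groups, counts of members measured on every array compared are given apart from the counts over all tested members.

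In day 0 fibroblasts 8 of the 36 genes were well above background on both arrays. They included Hoxa3 and Hoxa7, Hoxb2, Hoxb3 and Hoxb4, Hoxc4 and Hoxd8, and the same 8 were above background on all 22 arrays. By the laxer flag 23 of the 36 were detected on both day 0 arrays. Hoxb2, a paralogue of the hindbrain and upper neck level, had log2 levels of -0.51 and -0.53 at day 0. In the cultures more members were detected. With MGT, the members above background on both arrays numbered 19 (day 3), 11 (day 5), 21 (day 7), 13 (day 10) and 23 (day 14). With lacZ the numbers were 24, 12, 22, 16 and 16 on the same days. The share of all spots above background moved with these numbers, from 55.3% to 71.0% over the MGT arrays and from 48.4% to 64.7% over the lacZ arrays, with the lowest shares at days 5 and 10 and on the day 14 lacZ arrays.

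At day 0 the share of members well above background fell with paralogue number. Of the 11 members of paralogue groups 1 to 4, 6 were well above background on both day 0 arrays, as were 2 of the 10 members of groups 5 to 8 and 0 of the 15 members of groups 9 to 13. By the laxer flag 8 of the 11, 9 of the 10 and 6 of the 15 were detected on both day 0 arrays. The order of groups 1 to 4 and 5 to 8 thus depended on the flag. In the 10 culture groups 6 to 9 of the 11, 4 to 10 of the 10 and 0 to 5 of the 15 were well above background on both arrays. Counted by any probe of the gene, Hoxa10, Hoxb1, Hoxb13, Hoxd11, Hoxd12 and Hoxd13 were above background on no array, Hoxd3 on 1 and Hoxa13 on 2, and these 8 were not tested. Hoxd10 was detected on 2 arrays, Hoxa11 and Hoxc12 on 4, Hoxb8 and Hoxd9 on 5, and Hoxc9 and Hoxc10 on 6. Hoxa4 was detected on 10 arrays, Hoxa2 and Hoxa9 on 12, Hoxb5 and Hoxb9 on 13, Hoxc5 and Hoxd4 on 15, Hoxa6 and Hoxb7 on 16, Hoxb6 and Hoxc13 on 18, Hoxc6 on 20 and Hoxa5 on 21. Hoxc13, at the posterior end of cluster C, was thus detected on more arrays than any other member of groups 9 to 13.

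**Figure D1:**
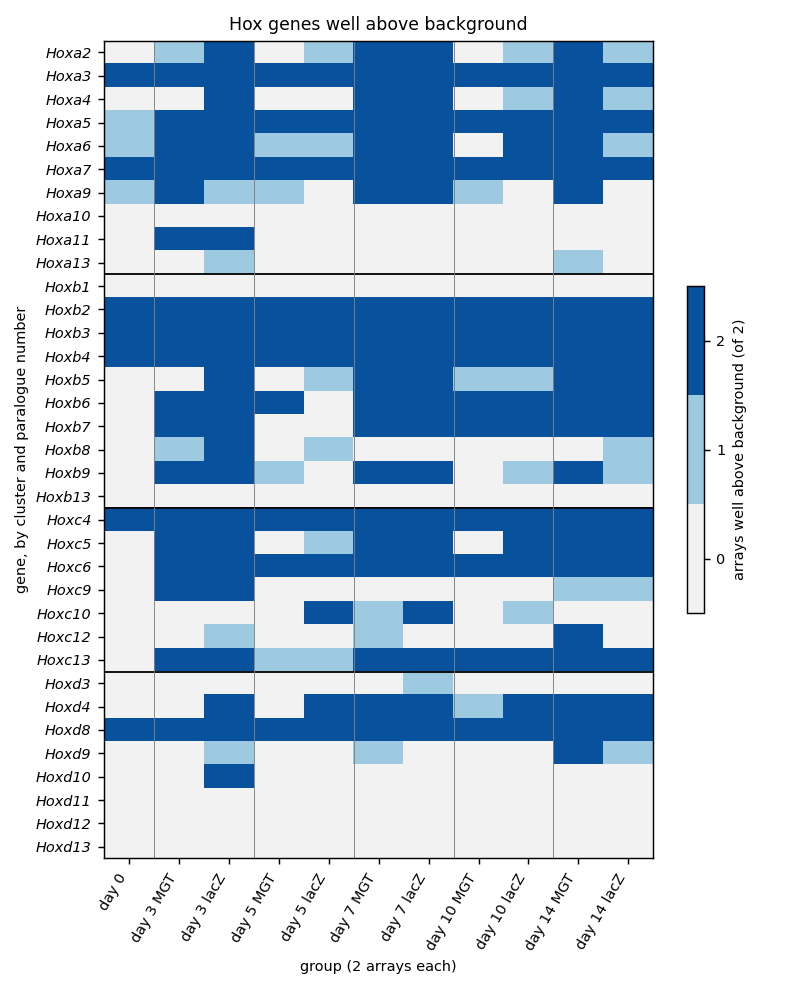
Number of arrays (0, 1 or 2) on which Hox genes were well above background, with genes in rows by cluster and paralogue number and the 11 groups in columns, MGT left of lacZ within a day. The genes with filled cells in every column include Hoxa3, Hoxb4 and Hoxd8, and Hoxa11 is filled at day 3 and empty elsewhere.

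MGT cultures were set against lacZ cultures of equal age, so that both sides were infected and equally long in culture. Whether the share of infected cells was equal is not known, and at day 14 slide and vector cannot be told apart. In this comparison, fell and rose mean lower and higher with MGT than with lacZ, and not a change over time. The 10 Hox genes measured on all 20 cultures' arrays fell with MGT on average over the 5 days, by 0.41 to 1.65 on the log2 scale, and 0 rose. They included Hoxa3, Hoxa5, Hoxa7, Hoxb2, Hoxb3, Hoxb4, Hoxc4, Hoxc6 and Hoxd8. Among the 13586 genes measured in the same way 46.6% were called lower and 22.7% higher, and their median was -0.10, against -0.70 for these 10 members. Over all 28 tested members 25 were called lower, 2 higher and 1 neither, with a median of -0.84, while over all 18055 genes 40.7% were called lower and 23.3% higher (63.9% either way) with a median of -0.09. Averaged over days 3 to 10, where both vectors shared slides, 22 members were lower and 2 higher, against 37% and 22% of all genes (59% either way). Averaged over days 5 to 14, 23 were lower and 2 higher, against 39.5% and 23.2% (62.7% either way), and the 10 measured on every array were each called lower. Within slide 1 (days 3 and 5) 5 of the 10 were called lower and 0 higher, where 30.8% of genes measured alike were lower, and over all tested members 14 were lower and 2 higher, against 27.6% and 18.3% of all genes (45.8% either way). Within slide 2 (days 7 and 10) 11 of 13 were lower and 1 higher, where 36.0% and 18.6% of genes measured alike were lower and higher, and over all tested members 18 were lower and 1 higher, against 31.3% and 18.9% (50.2% either way).

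Hoxd8, a gene of the middle of cluster D, had the largest fall among the members measured on every array. Its log2 level on the MGT arrays was -4.51 and -4.28 (day 3), -4.57 and -4.74 (day 5), -3.72 and -3.87 (day 7), -3.46 and -3.41 (day 10), then -3.46 and -3.32 (day 14). The lacZ arrays gave -3.77 and -3.66 (day 3), -2.64 and -2.77 (day 5), -2.40 and -2.14 (day 7), -1.44 and -1.56 (day 10), then -1.14 and -1.31 (day 14). The groups did not overlap on any day, and the averaged difference was -1.65 (SE 0.05, limma adjusted p = 6.01e-12, 10 arrays each). Hoxc4, the most anterior tested gene of cluster C, lay between -3.98 and -2.86 on MGT arrays (median -3.72) and between -2.90 and -1.27 on lacZ arrays (median -2.50), with an averaged difference of -1.26 (SE 0.18, adjusted p = 3.26e-05). The vectors overlapped at day 14, with MGT arrays at -3.15 and -2.86 and lacZ arrays at -1.27 and -2.90, and were apart on the other days.

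Hoxc13, a gene of hair follicle and nail in the adult mouse, was detected on 9 MGT and 9 lacZ arrays. It lay between -5.22 and -3.09 with MGT (median -4.41) and between -4.24 and -2.11 with lacZ (median -2.43), an averaged difference of -1.41 (SE 0.07, adjusted p = 6.58e-10). On each single day both MGT arrays lay below both lacZ arrays. Hoxb5 had levels of -6.85 to -4.79 with MGT (median -5.78, 5 arrays above background) and of -5.52 to -3.14 with lacZ (median -4.36, 8 arrays), a difference of -1.32 (SE 0.11). Hoxb7 had -5.90 to -2.90 with MGT (median -5.29) and -5.12 to -1.26 with lacZ (median -3.84), a difference of -1.08 (SE 0.16), with 8 arrays above background for each vector. Hoxc5 had -6.21 to -4.33 with MGT (median -5.44, 6 arrays) and -5.20 to -2.38 with lacZ (median -4.23, 9 arrays), a difference of -1.30 (SE 0.16).

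Hoxd4, Hoxb8, Hoxc10 and Hoxc9 were called lower with 5 or more MGT arrays at background. The same holds for Hoxa2, Hoxa4, Hoxa11, Hoxb5, Hoxd9 and Hoxd10. Hoxd10 was above background on 0 MGT and 2 lacZ arrays, and its call was lost under 11 of 28 alternatives. These were normexp, the deposited table, another percentile and the leaving out of any of several single arrays. Hoxd4, an anterior gene with a known retinoic acid enhancer, was above background on 5 MGT and 10 lacZ arrays, with levels of -7.71 to -3.11 (median -5.90) and of -5.26 to -2.65 (median -3.69) and a fitted difference of -2.08 (SE 0.32). Hoxb8 was above background on 1 MGT and 4 lacZ arrays (-2.24, SE 0.40), Hoxc10 on 1 and 5 (-1.59, SE 0.32) and Hoxc9 on 3 and 3 (-1.19, SE 0.31). The fitted sizes of these falls rest on signals at background. Hoxd4 arrays of 1 group lay apart at day 10 with MGT (-3.11 and -5.49), Hoxb8 arrays at day 5 with lacZ (-3.02 and -6.54), and Hoxc10 arrays at days 5 and 7 with lacZ (-3.60 and -1.73, then -3.44 and -5.49).

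Hoxb6 and Hoxa9 were the members called higher with MGT than with lacZ. Hoxb6 lay between -3.86 and -2.95 with MGT (median -3.47, 10 arrays above background) and between -5.11 and -2.37 with lacZ (median -3.85, 8 arrays), a difference of 0.57 (SE 0.14, adjusted p = 0.00347). Of the single days it passed at days 5 and 7. At day 3 MGT was at -3.86 and -3.72 and lacZ at -3.54 and -3.69 (-0.17, adjusted p = 0.774), and at day 14 MGT was at -3.30 and -3.34 and lacZ at -2.37 and -3.78 (-0.24, adjusted p = 0.565). At day 5 the MGT arrays were at -3.50 and -3.47 and the lacZ arrays, both at background, at -5.11 and -5.07, which is at least 2.11-fold higher with MGT (adjusted p = 0.0014). A bound of this kind sets the mean of the brighter group against, per array of the dimmer one, the higher of its own signal and the lowest signal well above background. At day 7 MGT was at -3.26 and -3.53 and lacZ at -4.58 and -4.45 (1.12, SE 0.32, adjusted p = 0.0144), but this call needed both the first MGT array (0.0948 without it) and the first lacZ array of that day (0.0724 without it). Hoxa9, above background on 8 MGT and 2 lacZ arrays by the probe used, differed by 0.56 (SE 0.14, adjusted p = 0.00387). Its other kept probe differed by 0.04, and with the deposited table the gene differed by 0.16 (adjusted p = 0.12).

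**Figure D2:**
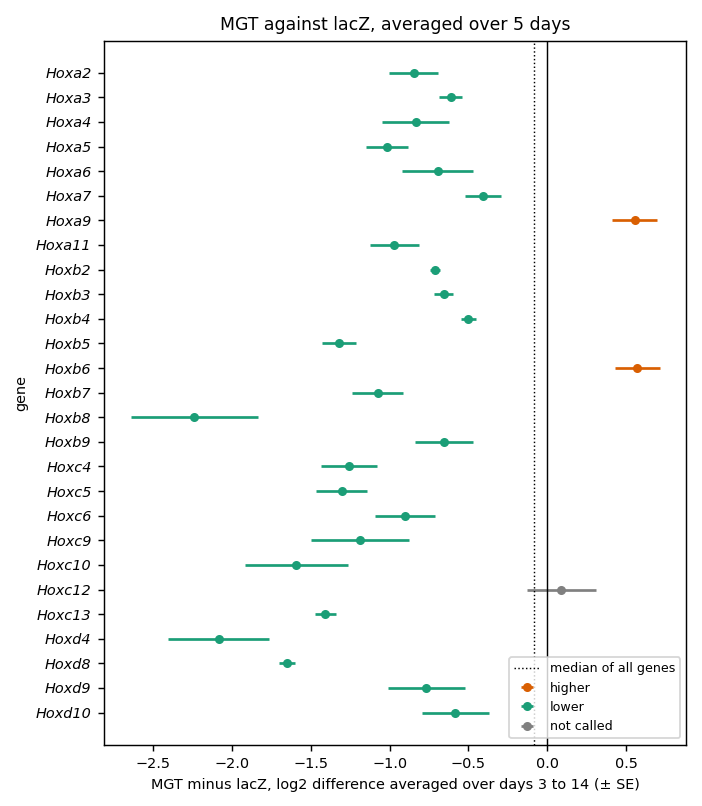
Log2 difference of MGT minus lacZ averaged over days 3 to 14 for tested Hox genes, with bars of 1 SE and a dotted line at the median of all genes (-0.09). Points left of 0 are called lower, Hoxa9 and Hoxb6 lie right and are called higher, and Hoxc12 (0.09) is not called.

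By cluster, 8 of the 9 tested genes of cluster A were lower, 7 of 8 of cluster B, 6 of 7 of cluster C and 4 of 4 of cluster D, with medians of -0.70, -0.68, -1.26 and -1.21. By paralogue number, 9 of 9 of groups 1 to 4, 9 of 10 of groups 5 to 8 and 7 of 9 of groups 9 to 13 were lower. Of all genes 40.7% were called lower and 23.3% higher (63.9% either way). These counts include members with arrays at background, and of cluster D only Hoxd8 was measured on all 20 arrays. Whether the clusters differ was not tested. Of the other members measured on all 20 arrays Hoxa5, known for its role in lung and axial skeleton, differed by -1.02 (SE 0.13), Hoxc6 by -0.90 (SE 0.19), Hoxb2 by -0.71 (SE 0.03), Hoxb3 by -0.66 (SE 0.06), Hoxa3 by -0.61 (SE 0.07), Hoxb4 by -0.50 (SE 0.05) and Hoxa7 by -0.41 (SE 0.12).

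**Figure D3:**
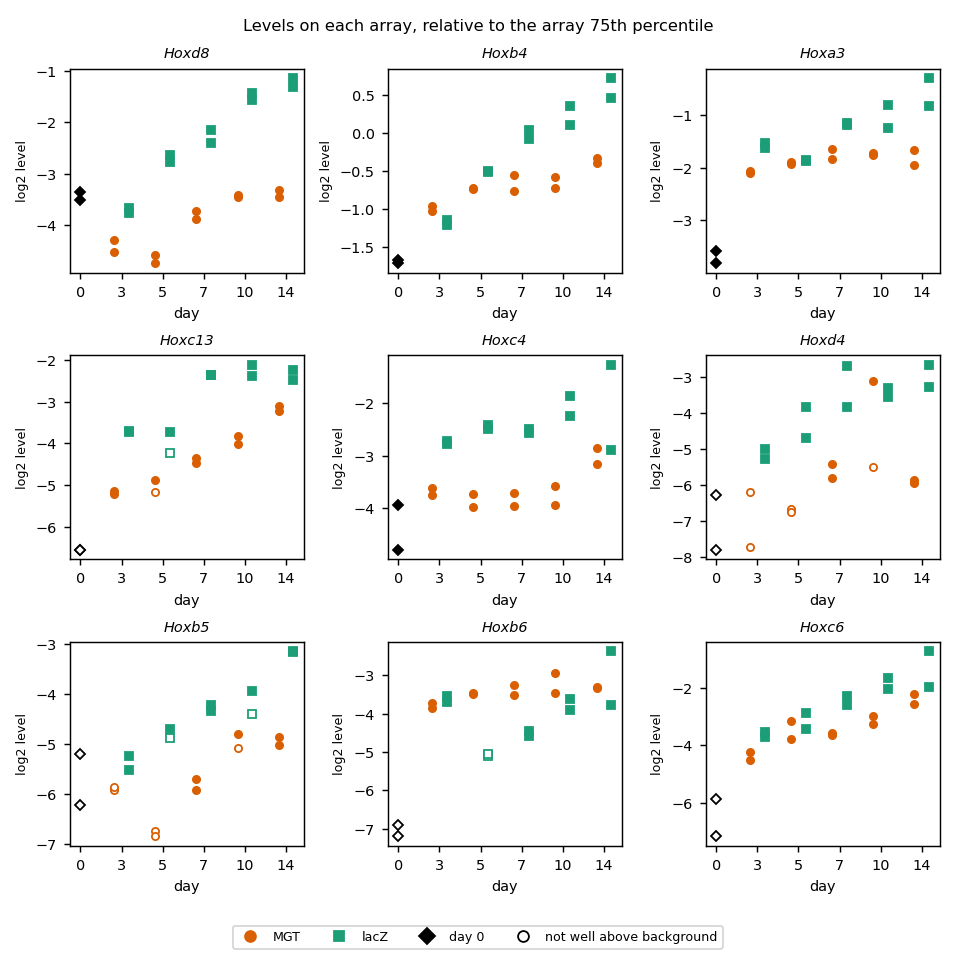
Log2 level on each array, relative to the 75th percentile of that array, of 9 Hox genes by day, with MGT (circles) left of lacZ (squares), day 0 as diamonds and open symbols for arrays not well above background. In the panel of Hoxd8 both MGT arrays lie below both lacZ arrays on every day, and in the panel of Hoxb6 the MGT arrays lie above the lacZ arrays at days 5 and 7.

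The same difference was read on each day. Of the members measured on all 4 arrays of a day, those called lower numbered 8 of 18 (day 3), 5 of 10 (day 5), 14 of 21 (day 7), 11 of 13 (day 10) and 12 of 16 (day 14). The share of genes measured alike that were called lower was 18.9%, 25.2%, 24.3%, 27.9% and 34.9% on these days. The number called higher was 0 except for 1 (Hoxb6) at day 7, where 14.5% of genes measured alike were higher. Over all tested members 8 were lower and 0 higher at day 3, against 18.1% and 12.4% of all genes (30.4% either way). At day 5, 11 were lower and 1 higher, against 21.9% and 16.2% (38.1%). At day 7, 14 were lower and 1 higher, against 22.4% and 14.9% (37.3%). At day 10, 18 were lower and 0 higher, against 24.2% and 15.2% (39.4%), and at day 14, 16 were lower and 1 higher, against 29.3% and 18.3% (47.6%). Of these calls Hoxd9 at day 10 and Hoxa11 at day 14 had no array above background in either group and are not results. At day 14 without the second lacZ array 20 members were called lower and 0 higher.

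At day 3 Hoxb9, a thoracic gene, was at -4.26 and -4.39 with MGT and at -2.80 and -2.15 with lacZ (-1.85, SE 0.41, adjusted p = 0.00374). Hoxc13 was at -5.22 and -5.14 with MGT and at -3.72 and -3.70 with lacZ (-1.47, SE 0.15, adjusted p = 9.05e-06). At day 5 Hoxc10 was at background on both MGT arrays and at -3.60 and -1.73 with lacZ, at least 5.98-fold lower with MGT (adjusted p = 0.00135), or at least 3.13-fold without the second lacZ array and 11.4-fold without the first. Hoxd4 was at background on both MGT arrays and at -4.70 and -3.83 with lacZ, at least 1.98-fold lower (adjusted p = 0.0167), a call lost on leaving out the first MGT array (adjusted p = 0.0638), the second MGT array (0.0683) or the second lacZ array (0.121) of that day. At day 7 Hoxd4 was at -5.42 and -5.81 with MGT and at -2.70 and -3.83 with lacZ (-2.35, adjusted p = 0.0200), and leaving out either MGT array (0.0563 and 0.101) or the first lacZ array (0.151) ended the call. Hoxc13 was at -4.34 and -4.47 with MGT and at -2.36 and -2.35 with lacZ on that day (-2.05, adjusted p = 1.92e-07).

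At day 10 Hoxc5 had the largest difference, at background on both MGT arrays (-6.21 and -5.82) and at -2.86 and -2.38 with lacZ. It was at least 5.68-fold lower with MGT (adjusted p = 5.98e-06). Hoxc10 was at background on both MGT arrays and above it on 1 of 2 lacZ arrays, at least 1.37-fold lower (adjusted p = 0.00947). Of the members measured on all 4 arrays, Hoxd8 had the largest difference (-1.93, SE 0.11, adjusted p = 2.01e-08), followed by Hoxc4 (-1.72, SE 0.40, adjusted p = 0.00373). At day 14 Hoxd4 was at -5.95 and -5.85 with MGT and at -2.65 and -3.26 with lacZ (-2.95, SE 0.72, adjusted p = 0.0044). Hoxb5 was at -5.02 and -4.86 with MGT and at -3.14 and -3.17 with lacZ (-1.78, SE 0.25, adjusted p = 6.15e-05). Hoxb8 was at background on both MGT arrays and on the second lacZ array (-4.42), with the first lacZ array at -2.48. Hoxa9 was at -4.58 and -4.99 with MGT and at background with lacZ (-5.76 and -5.83). Its higher call (adjusted p = 0.0192) ended on leaving out the first MGT array or the second lacZ array. The lowest signals well above background on these lacZ arrays were -5.02 and -4.41, so that no fold bound could be given for Hoxa9.

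The change of the MGT and lacZ difference from day 3 to day 14 was tested next. Of 14 members measured on all 8 arrays 5 changed downwards, 1 upwards and 8 were not called, against 18.4% and 11.5% of genes measured alike. Over all tested members 6 changed downwards and 1 upwards, against 15.2% and 12.3% of all genes (27.6% either way). Hoxd8 changed by -1.48 (SE 0.16, adjusted p = 3.03e-05), with differences of -0.69 at day 3 and -2.16 at day 14. Hoxb4 changed by -1.14 (SE 0.15, adjusted p = 0.000105). Its MGT arrays were at -1.02 and -0.95 at day 3 and at -0.32 and -0.39 at day 14, and its lacZ arrays at -1.14 and -1.21 and at 0.73 and 0.46. The MGT minus lacZ difference was 0.19 at day 3 (adjusted p = 0.197), and MGT was lower at day 14 (-0.95, adjusted p = 6.53e-06). Hoxb2 changed by -0.50 (SE 0.10, adjusted p = 0.00314). The calls of Hoxa3 (-0.74, adjusted p = 0.0314) and Hoxc13 (0.66, adjusted p = 0.0374) were each lost on leaving out any of the 4 day 3 arrays, with adjusted p from 0.0600 to 0.103. The call of Hoxa3 was also lost without the second day 14 MGT array (0.123) or the first day 14 lacZ array (0.0848), and that of Hoxc13 without either day 14 MGT array (0.112 and 0.0619) or the second day 14 lacZ array (0.110).

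Against day 0, the members already detected in untransduced fibroblasts were higher in lacZ cultures. All 8 members measured on the 4 arrays were called higher in lacZ cultures at day 14, which shared a slide with day 0, by 0.91 to 3.14, where 39.1% of genes measured alike were higher. Hoxa3, a gene of the third pharyngeal arch, was at -0.30 and -0.83 in day 14 lacZ cultures and at -3.82 and -3.59 at day 0 (3.14, SE 0.16, adjusted p = 1.71e-09). In MGT cultures at day 14, on another slide, 6 of the 8 were higher and 0 lower, where 31.6% and 42.8% of genes measured alike were higher and lower. Hoxa3 was at -1.67 and -1.95 there (1.90, SE 0.16). Hoxd8 was at -3.46 and -3.32 in day 14 MGT cultures and at -3.36 and -3.52 at day 0 (0.05), and Hoxb2 at -0.52 and -0.57 and at -0.51 and -0.53 (-0.02). In day 14 lacZ cultures Hoxd8 was 2.21 and Hoxb2 0.91 higher than at day 0. The MGT and lacZ comparisons share the day 0 arrays.

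Some members at background on both day 0 arrays were well above it in the cultures. By the laxer flag Hoxc6, Hoxb7, Hoxc13 and Hoxd4 were detected on all 22 arrays, those of day 0 included. Their absence at day 0 was thus not shown. Hoxc6, a gene of the cervical and thoracic level, was at -0.74 and -1.97 in day 14 lacZ cultures and at background at day 0 (-7.15 and -5.84), at least 18.8-fold higher (adjusted p = 1.54e-07). Hoxb7 (-1.26 and -2.95 with lacZ) was at least 11.2-fold higher, Hoxc13 at least 9.48-fold, Hoxd4 at least 6.22-fold and Hoxb6 (-2.37 and -3.78) at least 5.72-fold. The first lacZ array was the brighter for Hoxc6, Hoxb7 and Hoxb6, and without it these bounds were 12.3-fold, 6.25-fold and 3.51-fold. Without the second lacZ array they were 28.8-fold, 20.2-fold and 9.32-fold. In day 14 MGT cultures Hoxc6 was at least 9.17-fold higher than at day 0, Hoxc13 at least 5.42-fold, Hoxb7 at least 5.35-fold and Hoxb6 at least 4.84-fold. Over all tested members 22 were called higher and 0 lower in day 14 lacZ cultures and 16 higher and 1 lower in day 14 MGT cultures, against 35.5% and 33.4% of all genes higher and lower for lacZ (68.9% either way) and 33.1% and 37.4% for MGT (70.5%). Hoxa11 is among these calls with no array above background at day 14 or day 0. Macrophage markers moved in the same direction, with 6 of the 6 measured higher in day 14 lacZ cultures, where their summed level was 169 to 268 against 35.9 to 37.6 at day 0, and 145 to 152 in day 14 MGT cultures. Their part in the Hox levels was not tested.

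**Figure D4:**
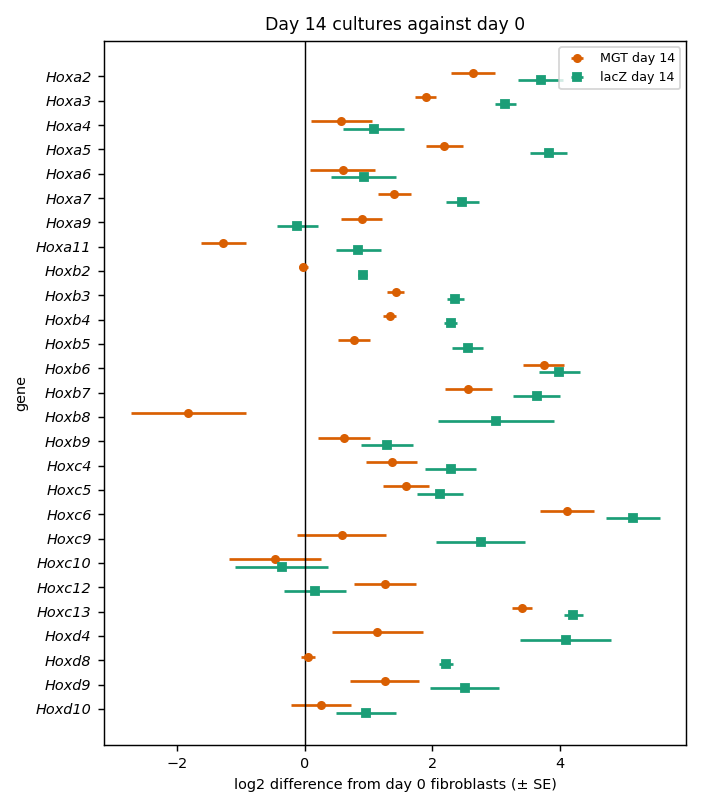
Log2 difference from day 0 fibroblasts of tested Hox genes in day 14 MGT (circles) and day 14 lacZ (squares) cultures, with bars of 1 SE. Both vectors share the day 0 arrays, and Hoxa11 was at background in all 3 groups. Hoxc6 lies farthest right with lacZ, while Hoxd8 and Hoxb2 lie near 0 with MGT.

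By day 3, on another slide than day 0, 6 of the 8 members measured on every array were higher with lacZ and 0 lower, where 28.4% and 32.9% of genes measured alike were higher and lower. With MGT 4 were higher and 2 lower, where 29.2% and 37.6% were. The 2 lower were Hoxd8, at -4.51 and -4.28 with MGT at day 3 and at -3.36 and -3.52 at day 0 (-0.96, SE 0.11, adjusted p = 7.00e-06), and Hoxb2, at -1.04 and -1.05 and at -0.51 and -0.53 (-0.52, SE 0.07, adjusted p = 3.08e-05). Over all tested members 16 were higher and 0 lower with lacZ and 13 higher and 2 lower with MGT at day 3, against 28.8% and 29.0% of all genes with lacZ (57.8% either way) and 29.3% and 33.1% with MGT (62.4%). Hoxd10 is among the 13 with no array above background in either group. Hoxb9 was at -2.80 and -2.15 in day 3 lacZ cultures and at background at day 0, at least 8.69-fold higher (adjusted p = 8.43e-06).

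Day 3 stood apart for several posterior members. Hoxa11, a limb and uterus gene read by 10 spots per array, was at -5.52 and -5.62 with MGT and at -4.42 and -4.39 with lacZ at day 3, and at background on all 18 other arrays. Hoxc9 was at -4.71 and -4.92 with MGT and at -3.82 and -3.59 with lacZ at day 3, and was above background on 2 of the 18 other arrays. Hoxd10 was above background on the 2 day 3 lacZ arrays (-5.59 and -5.69) and on no other. The lowest signals well above background were -6.08 and -5.82 on these arrays, against -4.84 and -4.28 on the day 5 lacZ arrays. Hoxd10 levels like those of day 3 would thus not count as detected at day 5 with lacZ, and its lacZ difference between these days was not called. Over all probes 9 were above background on all 4 day 3 arrays and on no other array. The same count was 0 for day 5, 6 for day 7, 1 for day 10 and 7 for day 14.

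The other named genes among the 9 were Ccdc148, Ltf, Mbl2, Pitx1, Scn3a with 2 probes, and Tmem28. Pitx1, a hindlimb transcription factor, was at -3.64 and -3.94 with MGT and at -2.75 and -2.56 with lacZ at day 3. This pattern was noticed in the data, and its source was not tested. Days 3 and 5 lay on 1 slide, and the days were then compared within each vector. In lacZ cultures Hoxb9 was at -5.25 and -5.41 at day 5, both at background, against -2.80 and -2.15 at day 3, and 5 members were called lower and 4 higher at day 5, where 15.6% and 14.1% of all genes were (29.6% either way). In MGT cultures 3 members were lower and 0 higher, where 14.1% and 13.4% were (27.5% either way), and of the 3 Hoxb5 had no array above background on either day. Of the 11 members measured on all 4 arrays, 1 was lower and 2 (Hoxb4 and Hoxd8) higher with lacZ, where 15.7% and 16.0% of genes measured alike were. With MGT 0 of 11 passed in limma, where 14.6% and 15.0% were lower and higher.

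**Figure D5:**
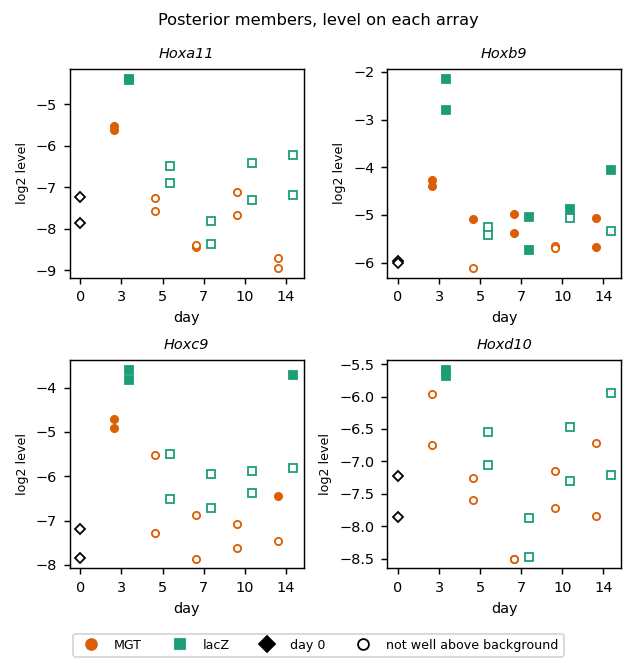
Log2 level on each array of the posterior genes Hoxa11, Hoxb9, Hoxc9 and Hoxd10 by day, with MGT (circles) left of lacZ (squares), day 0 as diamonds and open symbols for arrays not well above background. For Hoxa11 the 4 day 3 arrays carry filled symbols and the other 18 open ones.

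Genes that work with Hox proteins moved as follows in the averaged comparison. Of 9 TALE cofactor genes 4 fell and 0 rose, with a median of -0.11. They were the homeodomain partner genes Meis3 (-0.83, SE 0.07), Meis2 (-0.76, SE 0.04), Meis1 (-0.60, SE 0.05) and Pbx3 (-0.33, SE 0.04). Meis2 was at 0.21 on both day 14 MGT arrays and at 1.49 and 1.14 on the day 14 lacZ arrays. Of 17 measured genes of the retinoic acid pathway 12 fell and 3 rose, with a median of -0.50. Cyp26b1, which degrades retinoic acid, rose by 1.61 (SE 0.04), and Crabp2, which carries retinoic acid to the nucleus, fell by 1.51 (SE 0.07). Cyp26a1, a further degrading enzyme, was called lower but was above background on the 2 day 3 lacZ arrays only. All genes had 40.7% lower and 23.3% higher calls in this comparison.

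Of 17 known regulators of Hox clusters 6 fell and 3 rose, with a median of -0.09. Of all genes 40.7% were called lower and 23.3% higher, with a median of -0.09, so this list was near the share of all genes. Cdx1, a caudal-type activator, fell by 0.70 (SE 0.22), while Kdm6a, a demethylase of the Polycomb mark, rose by 0.49 (SE 0.09), as did Egr2, a hindbrain activator (0.31, SE 0.06). Of 15 genes that flank the clusters 6 fell and 3 rose, with a median of -0.09, which was also near the share of all genes. Skap1 beside cluster B was lower (-0.98, SE 0.09). The others named by the rule were Cbx5 (-0.23), Snx10 (0.23) and Lnpk (-0.19). Of 29 other positional transcription factors of mesenchyme 22 fell and 3 rose, with a median of -0.49. The somite genes Meox1 (-1.91, SE 0.04) and Meox2 (-1.52, SE 0.05) fell, as did Dlx2 (-1.88, SE 0.13) and the gonadal and limb gene Lhx9 (-1.42, SE 0.16). The 3 that rose were Shox2, Tbx18 and Tbx15.

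Transcripts within the clusters were read by 37 further probes, of which 20 were kept. In the averaged comparison 10 of the 20 were called lower, 2 higher and 8 neither. Of all 18055 genes 40.7% were called lower and 23.3% higher (63.9% either way), and the share over all kept probes is not given here. Hoxb5os, an antisense transcript of cluster B, was at -4.66 and -3.61 with MGT and at -1.61 and -1.94 with lacZ at day 14, and fell by 1.67 on average (SE 0.19, adjusted p = 4.26e-06). It was at background at day 0. Hoxa11os, opposite Hoxa11, did not pass (0.06, SE 0.09). In cluster D the transcript AI448005 (chromosome 2, 74569698 to 74569757 for the probe, mm9), above background on all 22 arrays, fell (-1.504, SE 0.12). Of 5 probes for the HOTAIR transcript of cluster C 1 was kept, with a difference of 0.21 (SE 0.12) that did not pass. In cluster B, 1 probe of a reverse-strand RNA region between Hoxb13 and Hoxb9 (chromosome 11, 96114981 to 96115040, mm9) rose by 1.76 (SE 0.05, adjusted p over probes 4.19e-12), whereas another kept probe of the same region (96114887 to 96114946) fell by 0.63 (SE 0.12). AI448005 and the cluster B region were picked after their values were seen.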

How the data were processed

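RNA of the 22 samples was hybridised to Agilent 1-colour mouse arrays after TRIzol and RNeasy isolation, per the labels' protocols. The deposited scanner files hold spot intensity values made by Feature Extraction 10.7.3.1, per the file headers: the processed intensity after background subtraction, the mean spot intensity, the median local background and detection flags. A second deposited table gives 1 intensity per gene name and array. The submitters' processing notes name limma, and how the table was made is otherwise not given in the sources used here, so it served as an alternative.

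Levels are log2 of the processed intensity minus the 75th percentile of each array over non-control spots. Spots with outlier flags were left out and spots of a probe averaged. Probes detected on both arrays of 1 or more groups were kept (38800 of 55681 probes), and the kept probe with the highest mean stood for its gene (18056 genes). Of the probes 30186 had a gene symbol through RefSeq. Group means were fitted over all arrays with limma 3.58.1 in R 4.3.3, with Benjamini-Hochberg adjustment over all genes and a threshold of 0.05. Every adjusted p is from this fit, except where a left-out array, the deposited table or normexp is named. Those are from the same model refitted to that input. The calls of the further probes within the clusters, and an adjusted p over probes, are from a fit of the kept probes. The fit was tested on simulated data. The members and lists were chosen with earlier results of these data known. The comparisons of day 5 with day 3, the counts of members measured on every array, the average without day 3 and the fold bounds without single arrays were added after seeing the data. Values are given for up to 10 members per direction with the largest averaged difference, up to 4 per direction in each other comparison, and up to 4 of each list, among those that passed; members and probes named beyond this were chosen after their values were seen. Further Hox gene names on the array were not analysed here, and some genes that enter the counts are not reported here by name. Alternatives were normexp (offset 50) with quantile normalization, the deposited table, another percentile, other filters on dim probes, the mean of the kept probes, fits of only the arrays compared, replicate number or slide as a block, and leaving out each array.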

Additional observations from a re-analysis of the deposited data

Results flagged for a closer look

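The change of the MGT minus lacZ difference from day 3 to day 14 passed the test (limma, interaction of vector and day) for the 6 Hox genes given here. It was -1.48 for Hoxd8, -1.27 for Hoxb5, -1.14 for Hoxb4, -0.74 for Hoxa3 and -0.50 for Hoxb2, and 0.66 for Hoxc13. For Hoxd8, Hoxb5, Hoxa3 and Hoxb2 MGT lay further below lacZ at day 14 than at day 3, and for Hoxc13 less far below. For Hoxb4 the difference was 0.19 at day 3 (adjusted p = 0.197) and -0.95 at day 14. Hoxb5 was at background on both day 3 MGT arrays, and its call (adjusted p = 0.0164) was lost without the second day 3 MGT array (0.0504), the first day 14 MGT array (0.0564) or the second day 3 lacZ array (0.0665), and with the deposited table (-0.84, adjusted p = 0.164). The calls of Hoxa3 and Hoxc13 were lost on leaving out single arrays too, as given above. Day 14 MGT and day 14 lacZ lay on different slides, so slide and vector cannot be told apart there.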

How the results depend on the processing

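The averaged comparison called 27 Hox genes, and 26 or 27 on leaving out any of its 20 arrays. Within slide 1 alone the number was 16. With only probes above background on all 22 arrays it was 8 in the averaged comparison, 5, 5, 8, 7 and 7 at days 3, 5, 7, 10 and 14, 7 and 6 for lacZ and MGT at day 3 against day 0, and 8 and 6 for lacZ and MGT at day 14 against day 0, since fewer genes were tested. Counting only members above background on every array compared, which was added after seeing the data, gave 10 in the averaged comparison, 5 at day 5, 11 at day 10, 6 each for lacZ and MGT at day 3 against day 0, and 8 and 6 for lacZ and MGT at day 14 against day 0. Fits of only the arrays compared gave 18 at day 3, 9 at day 14 and 4 for the change from day 3 to day 14, which was 7 in the fit over all arrays, 3 with the deposited table and 11 with no filter on dim probes; the cause was not tested. With the laxer detection flag 18 members, not 8, were detected on all 22 arrays. The change of Hoxc13 reversed to -0.055 with normexp (adjusted p = 0.818); the cause was not tested. On leaving out 1 array the calls numbered 5 to 7 at day 3 (5 without the second MGT array, 8 with all), 8 to 9 at day 5, 9 to 12 at day 7 (9 without the first lacZ array, 15 with all), 11 to 15 at day 10 (11 without the second lacZ array, 18 with all), 14 to 20 at day 14, and 3 to 11 for the change (3 without the second day 3 MGT or lacZ array, 4 without the first of either or the second day 14 MGT array, 11 without the second day 14 lacZ array). They numbered 14 to 15 and 15 to 17 for MGT and lacZ at day 3 against day 0, and 14 to 16 and 20 to 22 at day 14.

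Equal replicate numbers do not pair the samples, since deviations from the group means correlated at -0.09 to 0.16 between groups, over 0.1 in 3 of 55 pairs. With a replicate block the averaged count was 27, and the counts by day were 9, 11, 14, 17 and 17. Slide as a random block gave a correlation of 0. Both arrays of each group shared a slide, so the group means take up slide effects and this fit cannot show whether slide matters. Of the values for named members under the alternatives 2266 kept their direction and side of the threshold, 216 no longer passed and 1 reversed. Detection limits what dim members show, since 8 of the 36 were never detected on both arrays of a group.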
